A study of Mus musculus with 9 samples.

Results

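The genes of the tumor necrosis factor (TNF) ligand and receptor superfamily were followed in endothelial cells (ECs) sorted from mouse lungs with and without breast cancer metastases. Members were chosen by name: every measured gene whose symbol is Tnfsf or Tnfrsf with a number, plus Tnf, Lta, Ltb, Ltbr, Cd40, Cd40lg, Cd27, Cd70, Fasl and Ngfr. This gave 37 of the 18193 named genes of the arrays, of which 13 encode ligands and 23 encode receptors, and the last is Tnfsf13os, a transcript named as antisense to Tnfsf13. A gene with several probe sets was read at the one brightest on average over all 9 arrays, and Tnfrsf11b, the gene for osteoprotegerin (OPG), was read at both of its probe sets. Tnfsf12, Tnfsf13, Tnfsf15, Tnfsf18 and Tnfrsf26 had no probe set that named them alone and were not among the members.

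There were 3 groups of 3 arrays. In the metastatic DC101 group, NSG mice carried lung metastases of 3 weeks, seeded through the tail vein with the human breast cancer line MDA-MB-231-LM2, which was selected for growth in lung, and received DC101, a rat antibody against VEGF receptor 2, at 40 mg/kg on days 21 and 24 before harvest on day 25. In the metastatic IgG group, mice with the same metastases received rat IgG on the same days. In the healthy IgG group, age-matched NSG mice without cancer cells received rat IgG. All mice were 6 to 8 weeks old at the start. NSG mice lack mature T, B and natural killer cells and keep defective macrophages and neutrophils, which limits them as a model for a gene family that works largely between immune cells. Per the methods, cells were sorted as positive for CD31 and negative for CD45, CD11b, EpCAM, CD140a, CD140b and the GFP of the cancer cells, and mice with comparable metastatic load were used. The arrays of a group are labelled as biological replicates, but no label ties each to its own mouse, so a p-value here reflects the spread between these samples only, and the number of arrays limits the precision.

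Ligands of the TNF superfamily are mostly trimeric membrane proteins that can be shed, and they cluster their receptors on the target cell. Receptors with a death domain recruit TRADD or FADD and can start apoptosis, the other signalling receptors bind TRAF adaptors and activate NF-kB, and decoy receptors take up ligand without signalling. In endothelium TNF acts through its receptors TNFR1 and TNFR2 to switch on adhesion molecules and chemokines. OPG, a secreted decoy, binds RANKL and TRAIL and is itself made by ECs. The study followed OPG as a factor of the vascular niche and asked whether VEGF signalling and TNF from macrophages set its level.

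All values below are the deposited log2 expression values, changes are differences of group means on that scale with the moderated SE of limma, and calls were made where the adjusted p was under 0.05. Signals of different probe sets cannot be ranked as levels, but changes are understated toward the dim end of an array, and most ligands lay below the array median. Of the 13 ligands, 11 lay below the array median on all 9 arrays and only Tnfsf10, the gene for TRAIL, lay above it on all 9. Of the 23 receptors, 11 lay above the array median on all 9 arrays and 6 below it.

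As a check of the sorted cell type, all 12 pan-endothelial markers lay above the array median on all 9 arrays, as did 8 of 12 fibroblast and mural, 5 of 12 lung epithelial, 4 of 15 macrophage and monocyte, 3 of 7 platelet and erythrocyte and 0 of 10 lymphocyte and natural killer cell markers. Markers of cells outside the sort were thus read at bright probe sets too, among them Sftpc of lung epithelium (11.84 to 13.36 in metastatic DC101 lungs, 11.29 to 12.19 in metastatic IgG lungs and 12.89 to 13.29 in healthy IgG lungs), although a position against the array median depends on the probe set as well as the level. Between metastatic IgG and healthy IgG lungs, 4 of 7 lymphatic endothelial, 3 of 6 venous and 4 of 15 macrophage and monocyte markers were called higher, and 1 venous (Slc6a2), 6 of 12 lung epithelial and 3 of 7 platelet and erythrocyte markers were called lower. Of 12 fibroblast and mural markers 3 were called higher and 1 lower, of 6 dendritic cell markers 2 lower, and of 12 pan-endothelial markers 1 higher. The difference between the 3-prime and 5-prime control probe sets of Gapdh, a sign of RNA quality, was 0.35 to 0.60 in metastatic DC101 lungs, 0.47 to 0.57 in metastatic IgG lungs and 0.69 to 0.77 in healthy IgG lungs. The part of these shifts in the results below was not tested. In sorted bulk samples, fewer cells of a type and less RNA per cell cannot be told apart.

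Tnfrsf11b was the member that passed the test between metastatic IgG and healthy IgG lungs. The 1 of 37 members called compares with 6.53% of all genes (715 higher and 473 lower), and it rose. At an unadjusted p under 0.05 there were 8 members, or 21.6%, against 21.3% of all genes, so the members' share was near that of all genes. Of the 37 members, 33 changed by less than 0.5 in either direction, and the median change was 0.09, against -0.02 over all genes.

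No member was called in either comparison of DC101. Between metastatic DC101 and metastatic IgG lungs, limma called 0 of 37 members and 0% of all genes, and 1 member passed an unadjusted p under 0.05, against 6.65% of all genes. Against healthy IgG lungs, 0 of 37 members were called in metastatic DC101 lungs, compared with 2.42% of all genes, and 6 members (16.2%) passed an unadjusted p under 0.05, against 17.0% of all genes. The lowest adjusted p of a member there was 0.0519. The 3 comparisons share arrays pairwise, so their values stand side by side and are not independent of each other.

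**Figure D1:**
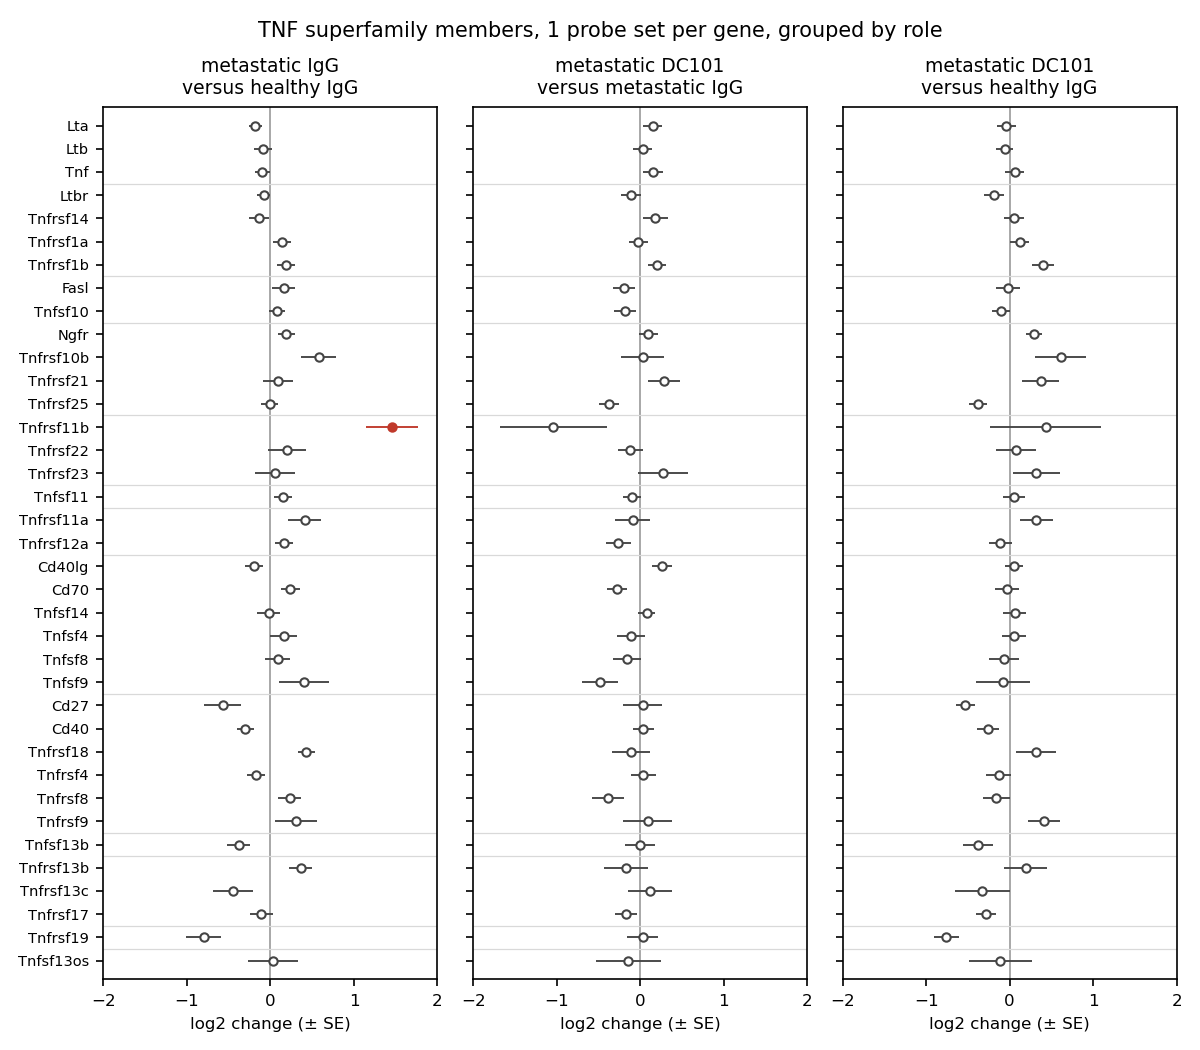
Log2 change of each of the 37 members with its SE (horizontal bars) in metastatic IgG versus healthy IgG, metastatic DC101 versus metastatic IgG and metastatic DC101 versus healthy IgG lungs, with 3 arrays per group and members grouped by role. The filled red point is the single called value, Tnfrsf11b at 1.46, and open points did not pass an adjusted p of 0.05.

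The arrays of the groups separated completely for a minority of members. Between metastatic IgG and healthy IgG lungs this held for 7 members (18.9%), against 27.6% of all genes, with Tnfrsf11b, Tnfrsf18 and Cd70 higher and Tnfrsf19, Cd27, Cd40 and Lta lower. Between metastatic DC101 and metastatic IgG lungs it held for 3 members (8.11%), against 12.4% of all genes, with Cd40lg higher and Tnfrsf25 and Cd70 lower. In metastatic DC101 against healthy IgG lungs it held for 9 members (24.3%), against 23.1% of all genes. These were 9 of the 23 receptors (39.1%) and 0 of the 13 ligands, but 11 of the 13 ligands lay below the array median on all 9 arrays.

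Promoter sequences are shown for the members whose start regions hold a kB motif, the site bound by NF-kB, because TNF receptors signal to that factor, and for Tnfrsf19, whose probe sets went opposite ways. The motif letters and the genes printed were chosen after the expression values were seen. RefSeq promoters of the mouse assembly GRCm38.p6 (300 bases each) were at hand for 28 of the 37 members, 32 promoters in all, since 4 members have 2 annotated starts. The kB letters, GGG then NN then TTTCC without a break (N being any base) and read on both strands, occurred in 3 of the 32 member promoters (9.38%) and in 1.63% of all 32851 promoters. The AP-1 letters TGANTCA occurred in 15.6% of member promoters (5 promoters, of which the 2 of Tnfsf13b overlap and share 1 site) and 7.81% of all, the letters of the interferon-stimulated response element, GAAA then NN then GAAA, in 12.5% and 3.44%, and the GC box GGGCGG in 46.9% and 35.7%. A match is a description of the letters and not a bound site. The 3 promoters with the kB letters, in capitals, belong to Ltb (chr17:35194395-35194454, plus strand), Tnfrsf9 (chr4:150927931-150927990, plus strand) and Tnfrsf25 (chr4:152115691-152115750, plus strand), each shown as 60 bases 5′ to 3′. None of the 3 overlapped a match of another motif searched.
Ltb: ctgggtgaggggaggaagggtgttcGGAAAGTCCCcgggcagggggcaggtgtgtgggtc
Tnfrsf9: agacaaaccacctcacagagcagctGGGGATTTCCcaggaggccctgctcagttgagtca
Tnfrsf25: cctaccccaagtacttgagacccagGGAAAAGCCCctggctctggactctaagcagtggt

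The match ended 77 bases before the Ltb start, 33 bases before one of the starts of Tnfrsf9 and 208 bases before one of the starts of Tnfrsf25. These 3 genes did not move together. Between metastatic IgG and healthy IgG lungs the changes were -0.09 for Ltb, 0.31 for Tnfrsf9 and -0.01 for Tnfrsf25, and none was called.

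TNF and the lymphotoxins, the founding ligands of the family, lay below the array median on all 9 arrays and differed little. Tnf read 7.30, 7.40 and 7.54 in metastatic DC101 lungs, 7.27, 7.13 and 7.34 in metastatic IgG lungs, and 7.33, 7.39 and 7.32 in healthy IgG lungs. The groups overlapped in every comparison. The change was -0.10 between metastatic IgG and healthy IgG lungs, with a 95% interval of -0.32 to 0.12, and 0.16 between metastatic DC101 and metastatic IgG lungs, with an interval of -0.11 to 0.43. Macrophage and monocyte markers, from cells that make TNF, had summed signals of 9302 to 12743 in metastatic DC101 lungs, 9825 to 11481 in metastatic IgG lungs and 10712 to 11829 in healthy IgG lungs, and Lyz2 was the brightest of them (0.76-fold between metastatic IgG and healthy IgG lungs, not called). The 4 markers called higher in that comparison were C1qa (2.9-fold), C1qb (2.6-fold), C1qc (1.62-fold) and Mrc1 (1.66-fold). The part of these cells in the Tnf values was not tested.

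Lta, which encodes lymphotoxin alpha, read 6.88, 7.02 and 6.73 in metastatic DC101 lungs, 6.73, 6.72 and 6.74 in metastatic IgG lungs, and 6.96, 6.89 and 6.89 in healthy IgG lungs. All metastatic IgG arrays lay below all healthy IgG arrays, by a mean of 0.18 (change -0.18, SE 0.08, limma adjusted p = 0.255). Ltb, the membrane partner of lymphotoxin alpha, changed by -0.09 in that comparison and by 0.03 between metastatic DC101 and metastatic IgG lungs, with overlapping arrays in both.

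The main receptors of these ligands gave bright and even signals. Tnfrsf1a, the gene for TNFR1, read 13.03, 13.21 and 13.10 in metastatic DC101 lungs, 13.13, 13.24 and 13.03 in metastatic IgG lungs, and 13.13, 12.87 and 12.99 in healthy IgG lungs. The 3 groups overlapped, and the interval of the change between metastatic IgG and healthy IgG lungs was -0.12 to 0.39. Ltbr, the lymphotoxin beta receptor, changed by -0.08 in metastatic IgG against healthy IgG lungs (interval -0.28 to 0.12). Its 3 metastatic DC101 arrays lay below all 3 healthy IgG arrays, at 10.86, 11.12 and 11.12 against 11.26, 11.17 and 11.25, with a change of -0.19 and an adjusted p of 0.46 by limma.

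Tnfrsf1b, the gene for TNFR2, lay higher in metastatic DC101 than in healthy IgG lungs on every array. It read 9.77, 9.59 and 9.80 in metastatic DC101 lungs, 9.47, 9.59 and 9.49 in metastatic IgG lungs, and 9.16, 9.31 and 9.50 in healthy IgG lungs. Metastatic DC101 and healthy IgG arrays did not overlap, with a change of 0.40 (SE 0.13, interval 0.10 to 0.69), and the limma adjusted p of 0.176 did not pass. Its second probe set gave changes of 0.25 between metastatic IgG and healthy IgG lungs and 0.27 between metastatic DC101 and healthy IgG lungs, beside 0.19 and 0.40 at the first. Tnfrsf14, the receptor HVEM, and Tnfsf14, its ligand LIGHT, changed by -0.14 and -0.02 between metastatic IgG and healthy IgG lungs, and all 3 groups overlapped for both.

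OPG, the soluble decoy receptor, was the member with the widest range. At its brighter probe set, Tnfrsf11b read 8.71, 10.25 and 11.58 in metastatic DC101 lungs, 10.73, 11.31 and 11.61 in metastatic IgG lungs, and 10.05, 9.16 and 10.05 in healthy IgG lungs. Every metastatic IgG array lay above every healthy IgG array, while the metastatic DC101 arrays ran from below the lowest healthy array to near the highest metastatic IgG array. The change in metastatic IgG against healthy IgG lungs was 1.46 (SE 0.31, interval 0.74 to 2.19, limma adjusted p = 0.0386). The study chose OPG on arrays of the same model at the same time, so this direction is not independent evidence. It also took its candidates from genes that it classed as independent of VEGF, so the DC101 values of OPG below concern a gene selected in that way.

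The second Tnfrsf11b probe set reads the same transcript separately. It gave 7.99, 10.05 and 9.63 in metastatic DC101 lungs, 10.06, 10.44 and 10.99 in metastatic IgG lungs, and 8.86, 8.35 and 8.58 in healthy IgG lungs. Metastatic IgG arrays again lay above all healthy IgG arrays, by 1.90 (SE 0.25, interval 1.30 to 2.50), or 3.73-fold. In the limma fit of all 45037 probe sets, where 3.66% were called, its adjusted p was 0.013, and it was the only one of the 61 probe sets of the members that was called. In that fit the brighter probe set had an adjusted p of 0.0582. Leaving out any single array other than metastatic IgG array 1 ended the call of the brighter probe set (limma adjusted p of 0.0603 to 0.113), whereas the second lost its call only without healthy array 2 (0.0502). In a fit of all 9 arrays the adjusted p was 0.23 at the brighter and 0.0708 at the second probe set.

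Under DC101 the OPG transcript was unevenly spread. The SD over the 3 metastatic DC101 arrays was 1.44 at the brighter probe set, against 0.45 in metastatic IgG lungs and 0.52 in healthy IgG lungs. Of all 18193 genes, only Flvcr2 (SD 1.69) spread more between the metastatic DC101 arrays, whose median SD over genes was 0.17. Array 1 was low at both probe sets, array 3 was the highest of the group at the brighter probe set and array 2 at the second.

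The intervals of the difference between DC101 and IgG were wide. Metastatic DC101 against metastatic IgG lungs differed by -1.04 at the brighter probe set (SE 0.64, interval -2.54 to 0.47, limma adjusted p = 0.789), with overlapping arrays. At the second probe set the difference was -1.28 (SE 0.52, interval -2.50 to -0.05, adjusted p = 0.773), and each DC101 array lay below each metastatic IgG array, array 2 only just. Against healthy IgG lungs, the metastatic DC101 arrays differed by 0.43 (interval -1.11 to 1.96) and 0.62 (interval -0.55 to 1.79) at these probe sets. Summed signals of fibroblast and mural markers, cells that also make OPG, were 28984 to 35345 in metastatic DC101 lungs, 23119 to 35246 in metastatic IgG lungs and 16934 to 21466 in healthy IgG lungs, with 3 of 12 markers called higher and 1 lower in metastatic IgG against healthy IgG lungs. The 3 called higher were the collagen genes Col1a1 (3.6-fold), Col1a2 (2.44-fold) and Col3a1 (1.82-fold), and the 1 called lower was Dcn (0.482-fold). Pdgfra (0.675-fold) and Pdgfrb (0.918-fold) were not called, and the median log2 change of the 12 markers was -0.10. For lymphatic endothelial markers the sums were 22397 to 29359 in metastatic DC101 lungs, 24304 to 26276 in metastatic IgG lungs and 20272 to 22346 in healthy IgG lungs. These sums are carried mostly by Lyve1 (0.872-fold between metastatic IgG and healthy IgG lungs, not called), while Prox1 rose 4.96-fold, Mmrn1 3.59-fold, Reln 3.1-fold and Thy1 2.28-fold, and the median log2 change of the 7 lymphatic markers was 1.19. Their part in the OPG values was not tested.

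**Figure D2:**
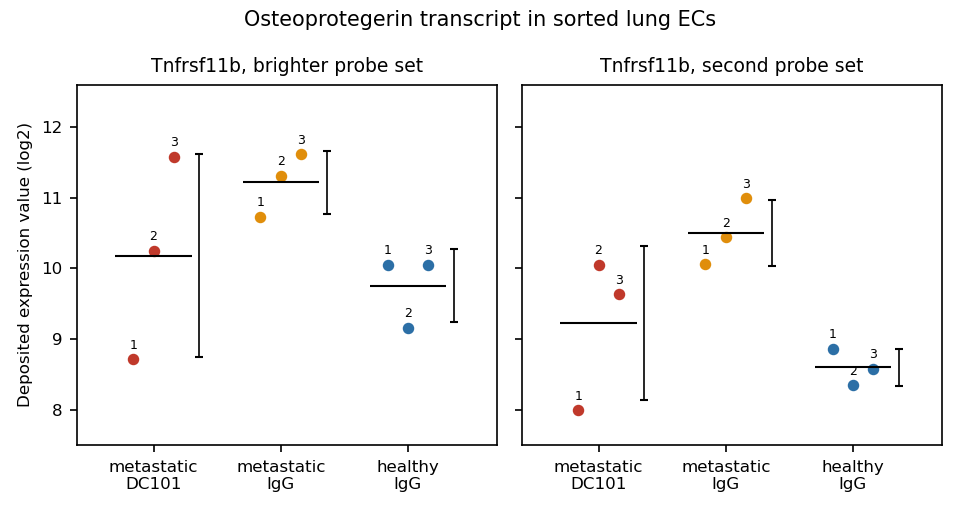
Deposited log2 value of Tnfrsf11b on each array at its brighter (left) and second (right) probe set, with the replicate number above each point, the group mean as a horizontal line and the SD (n = 3) as a bar beside it. Metastatic IgG arrays lie above healthy IgG arrays at both probe sets, and the metastatic DC101 arrays span 8.71 to 11.58 at the brighter one.

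Neither ligand of OPG was called in any comparison. Tnfsf11, the gene for RANKL, read 7.05, 7.17 and 6.90 in metastatic DC101 lungs, 7.08, 7.21 and 7.13 in metastatic IgG lungs, and 6.82, 7.11 and 7.02 in healthy IgG lungs, which overlap. Tnfsf10, the gene for TRAIL, which triggers apoptosis through death receptors, read 11.76, 12.07 and 11.95 in metastatic DC101 lungs, 12.01, 12.03 and 12.29 in metastatic IgG lungs, and 12.03, 12.00 and 12.05 in healthy IgG lungs. TRAIL was bright and even, and the change between metastatic IgG and healthy IgG lungs was 0.08 with an interval of -0.17 to 0.32. Its other probe sets gave changes of 0.04 and -0.06.

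Tnfrsf11a, the signalling receptor RANK, read 8.13, 8.49 and 8.77 in metastatic DC101 lungs, 8.59, 8.21 and 8.86 in metastatic IgG lungs, and 8.10, 7.89 and 8.44 in healthy IgG lungs. The groups overlapped, and its change of 0.41 between metastatic IgG and healthy IgG lungs (interval -0.07 to 0.88) stood beside -0.09 at its other probe set. No call was made at either probe set.

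None of the 4 death receptors among the members was called, and their values went different ways. Tnfrsf10b, the mouse TRAIL receptor with a death domain, read 9.05, 9.73 and 10.16 in metastatic DC101 lungs, 9.74, 9.62 and 9.49 in metastatic IgG lungs, and 8.98, 8.65 and 9.49 in healthy IgG lungs. Healthy array 3 equalled the lowest metastatic IgG value to 2 decimals, and the others lay lower. The change was 0.58 (SE 0.21, interval 0.09 to 1.07, limma adjusted p = 0.167), with 0.43 at its second probe set. Leaving out healthy array 3 was the only omission of 1 array that called it (change 0.80, limma adjusted p = 0.0381). Over all such omissions the change was 0.38 to 0.80, with adjusted p up to 0.335. With the mean of all probe sets the change was 0.50 (adjusted p = 0.242).

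Tnfrsf25, the death receptor DR3 that binds TL1A, was the member with an unadjusted p under 0.05 between metastatic DC101 and metastatic IgG lungs. It read 8.770, 8.888 and 9.003 in metastatic DC101 lungs, 9.354, 9.273 and 9.142 in metastatic IgG lungs, and 9.248, 9.386 and 9.165 in healthy IgG lungs. The metastatic DC101 arrays lay below all other arrays, while metastatic IgG and healthy IgG lungs overlapped with a change of -0.01. The difference from metastatic IgG lungs was -0.37 (SE 0.12, interval -0.64 to -0.10) and that from healthy IgG lungs -0.38 (interval -0.65 to -0.11), with limma adjusted p of 0.741 and 0.157.

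Tnfrsf21, the death receptor DR6 studied in nerve and endothelium, changed by 0.09, and Fasl, the ligand of Fas, by 0.16, between metastatic IgG and healthy IgG lungs, and arrays overlapped for both. Ngfr, the neurotrophin receptor p75 with a death domain, read 7.84, 7.75 and 7.82 in metastatic DC101 lungs, 7.76, 7.79 and 7.55 in metastatic IgG lungs, and 7.49, 7.46 and 7.60 in healthy IgG lungs. Its metastatic DC101 arrays lay above all healthy IgG arrays (change 0.29, interval 0.06 to 0.52, limma adjusted p = 0.205), but the other 2 Ngfr probe sets gave 0.09 and -0.18. The mouse decoy TRAIL receptors Tnfrsf22 and Tnfrsf23 changed by 0.20 and 0.05 between metastatic IgG and healthy IgG lungs, with all groups overlapping. Another Tnfrsf22 probe set gave -0.26 in that comparison and read 7.95, 7.67 and 7.68 in metastatic DC101 lungs against 8.15, 8.54 and 8.75 in healthy IgG lungs, a difference of -0.72 without overlap (limma adjusted p = 0.147 over all probe sets), beside 0.08 at the brightest one. Tnfrsf22 and Tnfrsf23 are close paralogs that share a further probe set on the array, so their probes may read each other's transcripts.

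**Figure D3:**
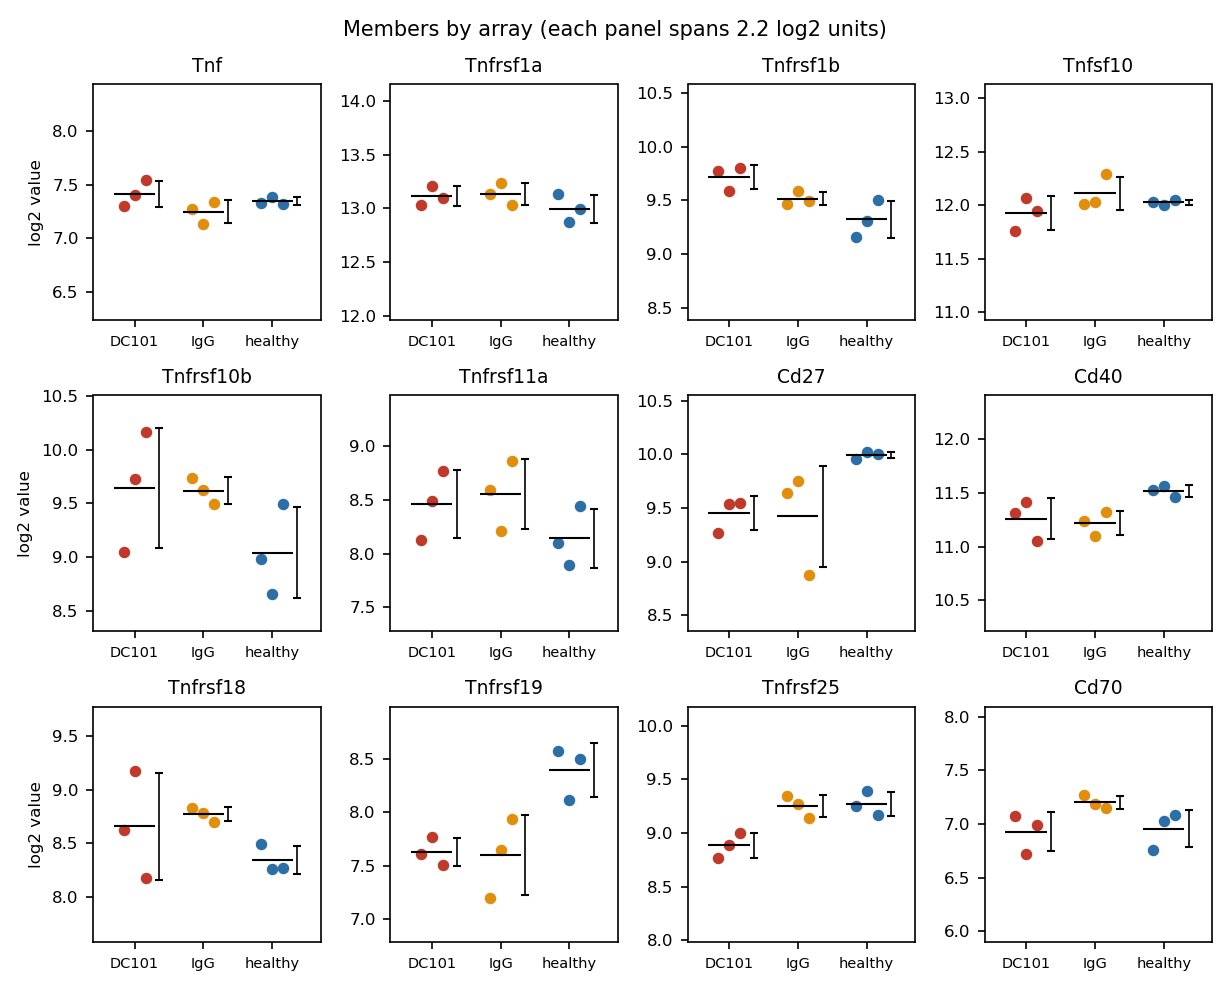
Deposited log2 values of 12 members on each array in metastatic DC101, metastatic IgG and healthy IgG lungs (left to right), with the group mean as a line and the SD (n = 3) as a bar, every panel spanning the same range of log2 units. Tnf, Tnfrsf1a and Tnfsf10 are level across groups, Cd27, Cd40 and Tnfrsf19 lie highest in healthy IgG lungs, and Tnfrsf25 is lowest in metastatic DC101 lungs.

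Costimulatory receptors are best known for sustaining lymphocyte responses. Of the 6 among the members, 3 had separated arrays between metastatic IgG and healthy IgG lungs, against 27.6% of all genes. Between metastatic DC101 and healthy IgG lungs it was also 3, against 23.1%, and between metastatic DC101 and metastatic IgG lungs 0, against 12.4%. These few genes went both ways, with Cd27 and Cd40 lower and Tnfrsf18 or Tnfrsf9 higher. Cd27, the receptor of CD70, read 9.275, 9.543 and 9.553 in metastatic DC101 lungs, 9.636, 9.754 and 8.878 in metastatic IgG lungs, and 9.956, 10.024 and 9.995 in healthy IgG lungs. All 6 metastatic arrays lay below the healthy ones. The change was -0.57 (SE 0.22, limma adjusted p = 0.199) in metastatic IgG and -0.53 (SE 0.11, limma adjusted p = 0.0669) in metastatic DC101 lungs, each against healthy IgG lungs. In a fit of the brighter genes alone, the difference of metastatic DC101 from healthy IgG lungs passed, with an adjusted p of 0.0423.

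Cd40, a receptor that ECs also carry and that activates NF-kB, showed a smaller difference of the same kind. It read 11.31, 11.42 and 11.05 in metastatic DC101 lungs, 11.24, 11.10 and 11.32 in metastatic IgG lungs, and 11.53, 11.57 and 11.46 in healthy IgG lungs. Again all 6 metastatic arrays lay below the healthy arrays, with changes of -0.30 (SE 0.10, limma adjusted p = 0.123) in metastatic IgG and -0.26 (SE 0.13, adjusted p = 0.352) in metastatic DC101 lungs. The other 2 Cd40 probe sets gave -0.31 and -0.36 for metastatic IgG against healthy IgG lungs.

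The sort was negative for CD45, and NSG mice lack mature T, B and natural killer cells. Ptprc, the gene for CD45, nevertheless lay lower on all 6 metastatic arrays than on the healthy ones. It changed by -0.68 (limma adjusted p = 0.0614) in metastatic IgG and by -0.76 (adjusted p = 0.123) in metastatic DC101 lungs, each against healthy IgG lungs. Of the 15 macrophage and monocyte markers, which include Ptprc, 4 were called higher and 0 lower in metastatic IgG against healthy IgG lungs. Lymphocyte and natural killer cell markers had 0 of 10 called in any comparison, and their summed signals were 1502 to 1541 in metastatic DC101 lungs, 1425 to 1482 in metastatic IgG lungs and 1419 to 1837 in healthy IgG lungs. Dendritic cell markers, which include cells that carry CD40, had 2 of 6 called lower in metastatic IgG against healthy IgG lungs, with sums of 2652 to 3405 in metastatic DC101 lungs, 2948 to 3357 in metastatic IgG lungs and 3476 to 3889 in healthy IgG lungs. These sums are carried mostly by Zbtb46 (0.909-fold between metastatic IgG and healthy IgG lungs, not called). The 2 called lower were Itgax (0.62-fold) and Siglech (0.659-fold). Ccr7 (0.759-fold), Flt3 (1.09-fold) and Xcr1 (1.04-fold) were not called. The part of any of these cells in the Cd27 and Cd40 values was not tested.

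Tnfrsf18, the receptor GITR, lay higher in metastatic IgG lungs. It read 8.62, 9.17 and 8.18 in metastatic DC101 lungs, 8.83, 8.78 and 8.70 in metastatic IgG lungs, and 8.49, 8.26 and 8.27 in healthy IgG lungs. The metastatic IgG arrays were tightly grouped above the healthy ones, and the metastatic DC101 arrays spread over both. The change of 0.43 (SE 0.10, interval 0.19 to 0.67) had a limma adjusted p of 0.0563, just outside the threshold. Tnfrsf9, the receptor 4-1BB, gave 7.67, 8.38 and 7.75 in metastatic DC101 lungs against 7.47, 7.63 and 7.48 in healthy IgG lungs, which did not overlap, but its change of 0.41 had a limma adjusted p of 0.341 and its other 2 probe sets gave 0.04 and -0.20.

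The costimulatory ligands were dim, and none was called. Cd70 read 7.07, 6.72 and 6.99 in metastatic DC101 lungs, 7.27, 7.19 and 7.15 in metastatic IgG lungs, and 6.76, 7.03 and 7.08 in healthy IgG lungs. The metastatic IgG arrays lay above both other groups, by 0.24 over healthy IgG (interval -0.02 to 0.51), and metastatic DC101 differed from metastatic IgG lungs by -0.28 (interval -0.57 to 0.01). Cd40lg, the ligand of CD40, read 7.37, 7.40 and 7.53 in metastatic DC101 lungs against 7.10, 7.08 and 7.35 in metastatic IgG lungs, a difference of 0.26 without overlap (interval -0.02 to 0.53, limma adjusted p = 0.75). Tnfsf4, Tnfsf8 and Tnfsf9, the ligands of OX40, CD30 and 4-1BB, changed by 0.09 to 0.40 between metastatic IgG and healthy IgG lungs and overlapped. Tnfsf9 read 6.86, 7.54 and 6.95 in metastatic DC101 lungs against 7.82, 7.33 and 7.65 in metastatic IgG lungs, with overlap, a difference of -0.48 (interval -0.97 to 0.01, limma adjusted p = 0.741).

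Among the members of the B cell branch, Tnfsf13b, the survival factor BAFF, read 8.08, 8.66 and 8.23 in metastatic DC101 lungs, 8.12, 8.30 and 8.54 in metastatic IgG lungs, and 8.68, 8.53 and 8.89 in healthy IgG lungs. The groups overlapped narrowly, with a change of -0.38 (interval -0.72 to -0.04, limma adjusted p = 0.183) in metastatic IgG lungs, beside -0.09 and -0.07 at its other probe sets. Its receptors Tnfrsf13b, Tnfrsf13c and Tnfrsf17 changed by -0.45 to 0.36 without a call. Tnfrsf17, the plasma cell receptor BCMA, read 6.78, 6.91 and 6.94 in metastatic DC101 lungs against 7.35, 7.07 and 7.08 in healthy IgG lungs, a difference of -0.28 without overlap (limma adjusted p = 0.287). Tnfrsf12a, the TWEAK receptor Fn14 that is induced in injured tissue, was bright and changed by 0.16 in metastatic IgG against healthy IgG lungs (interval -0.11 to 0.42) and by -0.26 in metastatic DC101 against metastatic IgG lungs (interval -0.62 to 0.09).

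Tnfrsf19, the orphan receptor TROY, had the largest decrease of any member against healthy IgG lungs, and it rested on 1 of its 3 probe sets. That probe set read 7.61, 7.77 and 7.51 in metastatic DC101 lungs, 7.20, 7.65 and 7.94 in metastatic IgG lungs, and 8.57, 8.11 and 8.50 in healthy IgG lungs. All 6 metastatic arrays lay below the healthy arrays, with changes of -0.80 (SE 0.21, interval -1.30 to -0.30, limma adjusted p = 0.0765) in metastatic IgG and -0.76 (SE 0.15, interval -1.12 to -0.41, adjusted p = 0.0519) in metastatic DC101 lungs. A fit of all 9 arrays passed the first of these (limma adjusted p = 0.0454). Leaving out healthy array 2 passed the second (change -0.91, adjusted p = 0.0443). With the mean of all probe sets the first shrank to -0.17 and was not called. When 1 array was left out, the first ran from -0.97 to -0.60 (limma adjusted p of 0.0667 to 0.21). The second then ran from -0.91 to -0.67 (adjusted p of 0.0443 to 0.176).

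The other 2 Tnfrsf19 probe sets changed by 0.35 and -0.07 between metastatic IgG and healthy IgG lungs, and neither was called. The gene has 2 annotated starts in the RefSeq table, and the 100 bases before each are printed 5′ to 3′ because they differ in the letters searched, with GC boxes in capitals. The first lies at chr14:61037988-61038087 and the second at chr14:61046856-61046955, both on the minus strand of GRCm38.p6. The starts are numbered by ascending coordinate, so on this strand the second lies upstream of the first.
Tnfrsf19 first start: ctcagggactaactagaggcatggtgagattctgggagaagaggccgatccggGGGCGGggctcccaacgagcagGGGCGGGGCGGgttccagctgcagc
Tnfrsf19 second start: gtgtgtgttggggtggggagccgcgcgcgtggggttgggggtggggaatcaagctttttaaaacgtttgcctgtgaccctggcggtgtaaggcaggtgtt

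The first held 3 matches of GGGCGG and the second 0. Which start feeds which probe set is not given by the tables used here.

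Probe sets of a gene disagreed in sign for many members. Of 17 members with several probe sets, 10 had all of them changed in the same direction between metastatic IgG and healthy IgG lungs and 7 did not. The corresponding counts were 8 and 9 between metastatic DC101 and metastatic IgG lungs, and 11 and 6 between metastatic DC101 and healthy IgG lungs. Cd40, Tnfrsf10b, Tnfrsf11b and Tnfrsf1b were among those that agreed between metastatic IgG and healthy IgG lungs, and Tnfrsf19, Tnfrsf11a, Fasl and Tnfrsf22 among those that did not.

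**Figure D4:**
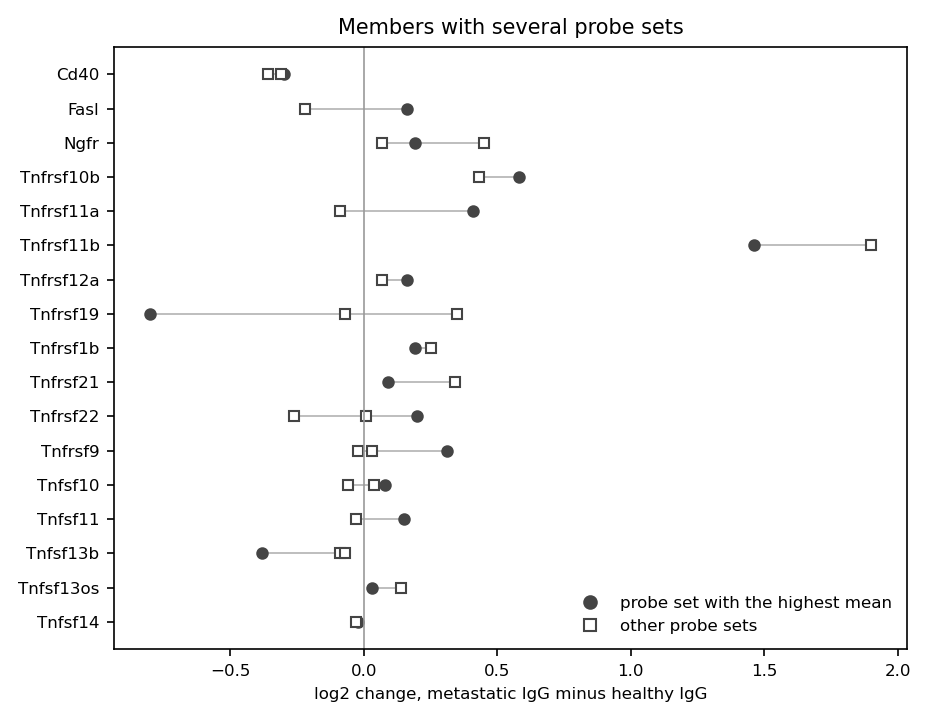
Log2 change between metastatic IgG and healthy IgG lungs (3 arrays each) at every probe set of the 17 members that have several, with the brightest probe set as a filled circle and the others as open squares. Both Tnfrsf11b probe sets stand apart at 1.46 and 1.90, while those of Tnfrsf19 run from -0.80 to 0.35.

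Superfamily genes with other symbols were read alongside. Fas, the receptor of Fas ligand with a death domain, read 11.95, 11.48 and 11.23 in metastatic DC101 lungs, 11.15, 11.21 and 11.17 in metastatic IgG lungs, and 11.81, 11.89 and 11.83 in healthy IgG lungs. It fell in metastatic IgG against healthy IgG lungs (change -0.66, SE 0.08, limma adjusted p = 0.00578), and metastatic DC101 lungs lay above all metastatic IgG arrays by 0.37 (SE 0.18, adjusted p = 0.755). Eda2r, an ectodysplasin receptor, rose by 0.98 in metastatic IgG against healthy IgG lungs (SE 0.22, adjusted p = 0.0461) and read 7.56, 8.40 and 7.78 in metastatic DC101 lungs, 8.60, 9.06 and 8.67 in metastatic IgG lungs, and 7.34, 8.11 and 7.92 in healthy IgG lungs. The metastatic IgG arrays of Eda2r lay above all others. Eda, Edar and Relt were not called in any comparison.

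Downstream of the receptors, 41 of 46 listed adaptors, kinases, ubiquitin ligases and NF-kB subunits were measured, and 3 rose and 2 fell in metastatic IgG against healthy IgG lungs, or 12.2%, against 6.53% of all genes, with a median change of 0.01. Tnip1, a partner of the NF-kB inhibitor A20, rose by 0.72 (SE 0.08, limma adjusted p = 0.00512), the NF-kB subunit gene Relb by 0.72 (SE 0.13, adjusted p = 0.0244), and Bid, which links death receptors to mitochondria, by 1.20 (SE 0.19, adjusted p = 0.0133). Traf5, an adaptor, fell by 0.63 (SE 0.11, adjusted p = 0.0233), and Map3k5, the stress kinase ASK1, fell by 0.67 (SE 0.09, adjusted p = 0.00816). None of the 41 was called between metastatic DC101 and metastatic IgG lungs or between metastatic DC101 and healthy IgG lungs. In these 2 comparisons 0% and 2.42% of all genes were called.

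Genes known to respond to TNF in endothelium held several that were called. Of 28, 8 rose and 2 fell in metastatic IgG against healthy IgG lungs (35.7%), against 6.53% of all genes, with a median change of 0.17. Those that rose were the chemokine genes Cxcl10, Cxcl1 and Ccl5, the adhesion molecule gene Selp, the cytokine genes Csf2 and Lif, the NF-kB cofactor gene Bcl3 and the pentraxin gene Ptx3. Selp is also one of the venous markers above. The adhesion molecule genes Vcam1, Icam1 and Madcam1 changed by 0.04, -0.17 and -0.16, and Sele by 1.11 (limma adjusted p = 0.063), none called. The chemokine genes Cxcl2, Ccl2 and Ccl20 changed by -0.06, 0.15 and -0.24, also without a call. Cxcl10 read 10.35, 11.44 and 10.75 in metastatic DC101 lungs, 11.14, 11.32 and 11.64 in metastatic IgG lungs, and 8.77, 8.55 and 9.07 in healthy IgG lungs, so that every metastatic array lay above every healthy one. It rose by 2.57 (SE 0.17, limma adjusted p = 0.000718) in metastatic IgG lungs and by 2.05 (SE 0.27, adjusted p = 0.0149) in metastatic DC101 lungs.

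The other 7 rose by 0.77 (Lif) to 1.49 (Ptx3) in metastatic IgG lungs. Cx3cl1, the gene for fractalkine, fell by 0.94 (SE 0.09, limma adjusted p = 0.00217) and Irf1, an interferon-response factor gene, fell by 0.48 (SE 0.08, adjusted p = 0.0189), although both are known as TNF-induced. None of the 28 was called between metastatic DC101 and metastatic IgG lungs, where 0% of all genes were called. In metastatic DC101 against healthy IgG lungs, Cxcl1, Cxcl10 and Lif were called higher and Cx3cl1 and Irf1 lower (17.9%, against 2.42% of all genes). Many of these genes also respond to other cytokines, and the list was chosen with earlier results known.

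Several members lie side by side in the genome. In the RefSeq gene order, 18 of the 37 members stood in runs of family genes with at most 1 other protein-coding gene between neighbours. Ltb, Tnf and Lta form a run in which the changes between metastatic IgG and healthy IgG lungs were -0.09, -0.10 and -0.18. Cd27, Ltbr and Tnfrsf1a form another, in which Cd27 changed by -0.57, Ltbr by -0.08 and Tnfrsf1a by 0.14. In the pair Tnfrsf4 and Tnfrsf18, the receptors OX40 and GITR, the changes were -0.17 and 0.43, and arrays separated for Tnfrsf18 only.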

How the data were processed

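RNA of sorted lung ECs was amplified from picogram amounts with a 3-prime in vitro transcription kit and hybridised to Affymetrix GeneChip mouse genome arrays. The values deposited by the authors are log2 expression values, 1 column per array, normalized by robust multiarray averaging in Chipster per the study's methods. This method equalises the arrays (column medians of 8.32 to 8.33), so a change in total RNA per cell cannot be seen. No source used here names the base of the logarithm, and it was read as log2, the scale this method returns. Arrays carry no counts or read depth.

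Probe sets were named through the platform annotation. The 64 control probe sets, 932 probe sets with several symbols and 9160 without a name here entered no gene table, and 34945 remained. Groups came from the labels. For each pair of groups, the functions lmFit and eBayes (limma 3.58.1, R 4.3.3) were run, two-sided, on its 6 arrays for all 18193 genes, with Benjamini-Hochberg adjustment over all of them, and separately for 45037 probe sets. The procedure was tested on simulated data. Intervals are 95% intervals of limma, not adjusted for the number of genes. Summed marker signals are sums of linear values.

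The members and lists were chosen with earlier results of these data known. Named in each comparison were Tnfrsf11b, every called member, the 5 largest increases and decreases among members whose arrays did not overlap, and members fixed by role. Members given only by changes or ranges fall outside this rule, as do the promoters printed. From the surrounding lists, called genes were named, and some that were not called were added beside them. Alternatives were the mean of all probe sets, no probe sets of cross-hybridising types, bright genes only, 1 fit of all 9 arrays, a prior variance trend, a replicate block, each array left out, and adjustment over all probe sets.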

Additional observations from a re-analysis of the deposited data

How the results depend on the processing

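The count of called members between metastatic IgG and healthy IgG lungs was 1 in the reported fit, where 6.53% of all genes were called. It was 2 with the mean of all probe sets (6.93% of all genes called), which added Tnfrsf18 (change 0.43, limma adjusted p = 0.0468). Tnfrsf18 has 1 probe set, so its own values stayed the same and only those of other genes in the fit changed. The count was 0 with p-values adjusted over all probe sets (4.54% of all genes), where Tnfrsf11b had an adjusted p of 0.0582. With the replicate number as a block it was 0 (Tnfrsf11b 1.46, adjusted p = 0.0656), while all genes called fell to 689 with the block, against 1188 without it. With all 9 arrays it was 1 (5.73% of all genes) but named Tnfrsf19 in place of Tnfrsf11b. Leaving out 1 array at a time gave 0 to 1 (3.06% to 4.17% of all genes). Between metastatic DC101 and healthy IgG lungs the count was 0 (2.42% of all genes). It was 1 of 12 members (Cd27) among bright genes only, where 4.73% of genes were called. When an array was left out it was 0 to 1 (0.605% to 1.98% of all genes). Between metastatic DC101 and metastatic IgG lungs it was 0 in every alternative run, as was the count over all genes. The second Tnfrsf11b probe set kept its direction between metastatic IgG and healthy IgG lungs and lost its call with all 9 arrays (1.90, adjusted p = 0.0708) and with the replicate block (1.90, adjusted p = 0.053), and its change was 1.65 to 2.12 when an array was left out. The replicate numbers did not pair the samples, since deviations of same-numbered arrays correlated at -0.05 to 0.08 and those of other pairs at -0.14 to 0.10.

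No called value changed sign in the alternatives run. Over the named members under all alternatives, 13 of 333 changes turned sign between metastatic IgG and healthy IgG lungs, 18 of 297 between metastatic DC101 and metastatic IgG lungs, and 14 of 334 between metastatic DC101 and healthy IgG lungs. With the mean of all probe sets these were, between metastatic IgG and healthy IgG lungs, Fasl at -0.03 and Tnfrsf22 at -0.02, between metastatic DC101 and metastatic IgG lungs Ngfr at -0.17, Tnfrsf11a at 0.14 and Tnfsf11 at 0.02, and between metastatic DC101 and healthy IgG lungs Tnfrsf22 at -0.26. Without probe sets of cross-hybridising types, Fasl was -0.22 and Tnfsf11 -0.03 between metastatic IgG and healthy IgG lungs, Fasl 0.09 and Tnfsf11 0.13 between metastatic DC101 and metastatic IgG lungs, and Tnfrsf22 -0.14 between metastatic DC101 and healthy IgG lungs.

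With 1 array left out, the changes that crossed 0 between metastatic IgG and healthy IgG lungs ran over -0.06 to 0.26 for Tnfrsf21, -0.07 to 0.39 for Tnfrsf22, -0.18 to 0.20 for Tnfrsf23, -0.06 to 0.05 for Tnfrsf25, -0.01 to 0.13 for Tnfsf10 and -0.12 to 0.11 for Tnfsf14. Between metastatic DC101 and metastatic IgG lungs they ran over -0.04 to 0.15 for Cd40, -0.02 to 0.12 for Ltb, -0.23 to 0.33 for Tnfrsf10b, -0.26 to 0.08 for Tnfrsf11a, -0.07 to 0.03 for Tnfrsf1a and -0.17 to 0.12 for Tnfsf13b. Between metastatic DC101 and healthy IgG lungs they ran over -0.13 to 0.08 for Fasl, -0.11 to 0.04 for Lta, -0.00 to 0.12 for Tnf, -0.27 to 1.17 for Tnfrsf11b, -0.22 to 0.01 for Tnfrsf12a, -0.03 to 0.14 for Tnfrsf14, -0.19 to 0.27 for Tnfrsf22, -0.03 to 0.12 for Tnfsf11 and -0.03 to 0.20 for Tnfsf14. The cause of these shifts was not tested. Dim probe sets and 3 arrays per group limit what these values can show.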

Other observations

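APRIL (Tnfsf13) and TWEAK (Tnfsf12), a B cell ligand and the ligand of Fn14, were read only by probe sets that several genes share. A probe set annotated to Tnfsf13, Tnfsf12 and their fusion transcript Tnfsfm13 read 9.98, 10.32 and 10.28 in metastatic DC101 lungs, 10.40, 10.46 and 10.15 in metastatic IgG lungs, and 10.79, 10.88 and 10.89 in healthy IgG lungs. One annotated to Tnfsf12 and Tnfsfm13 read 9.67, 9.57 and 9.17 in metastatic DC101 lungs, 9.44, 9.32 and 9.19 in metastatic IgG lungs, and 9.89, 9.96 and 10.59 in healthy IgG lungs. At both, all 6 metastatic arrays lay below all healthy arrays. In the limma fit of all probe sets the changes between metastatic IgG and healthy IgG lungs were -0.52 (SE 0.11, adjusted p = 0.064) and -0.83 (SE 0.20, adjusted p = 0.0795), and between metastatic DC101 and healthy IgG lungs -0.66 (SE 0.13, adjusted p = 0.0778) and -0.68 (SE 0.23, adjusted p = 0.25). None was called, and the probe sets were singled out after their values were seen.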
